A study of Mus musculus with 6 samples.

Results

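The genes described here are 10 genes of interleukin-1 signalling and of the NF-κB pathway, measured in NIH/3T3, an established fibroblast line from mouse embryos. They were the cytokine Il33, the receptor chains Il1r1, Il1rl1 and Il1rap, the receptor antagonist Il1rn, the NF-κB subunits Nfkb1, Nfkb2 and Rela, and the inhibitors Nfkbia and Tnfaip3. The genes were chosen by name, and all 10 were found among the 54752 genes of the count table. They were chosen with earlier results from these same libraries known, although the values that guided the choice are not stated. The fold changes and adjusted p-values below therefore describe these genes and are not independent evidence about them.

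Interleukin-1 binds a receptor made of a ligand-binding chain, Il1r1, and a shared accessory chain, Il1rap, and interleukin-33 binds Il1rl1, also called ST2, which uses the same accessory chain. Both receptors signal through the adaptor Myd88 and the kinases of the Irak family to the IκB kinase complex, which frees NF-κB dimers to enter the nucleus and switch on chemokine and inflammatory genes. In fibroblasts this route is known for the release of chemokines that draw in leukocytes, and Nfkbia and Tnfaip3 are NF-κB targets that feed back to shut it off.

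RNA was sequenced from 6 libraries of the same cells, 2 in each of 3 groups, after 72 h of treatment. The vehicle group received PBS. The DMSO group received TGF-β1 (TGFB1 in the labels) at 1 ng/ml with DMSO, the solvent, and the BI6727 group received TGF-β1 at 1 ng/ml with BI6727, an inhibitor of the mitotic kinase PLK1, at 5 μM. TGF-β1 and DMSO were both absent from the vehicle group, so their effects cannot be told apart. The labels do not say whether the BI6727 group also received DMSO. If it did not, inhibitor and solvent cannot be told apart between the BI6727 and DMSO groups. The study's methods speak of biological replicates but give numbers that conflict with each other, and the labels do not say whether the 2 libraries of a group came from separate cultures. The p-values therefore measure only the spread between these libraries, which may be technical. The libraries held between 18362378 and 24452153 counts on genes. All 8 fibroblast markers examined had at least 10 counts in every library, with a summed level between 6430 and 8560 normalized CPM, a read count scaled to a common library size with TMM factors. The summed level of macrophage markers was between 4.72 and 6.05 normalized CPM and that of T cell and innate lymphoid cell markers between 3.50 and 7.43. Of these, 2 of 8 macrophage markers and 1 of 7 T cell and innate lymphoid cell markers had at least 10 counts in every library. Adgre1, Tyrobp, Cd3e, Cd4, Cd8a and Il7r were at 0 counts in all libraries. Mast cell markers summed to at most 0.364 normalized CPM, with Kit at 0. Endothelial markers summed to 0.312 and 0.910 with vehicle and to between 2.00 and 3.77 in the TGF-β1 libraries, with Kdr, Tie1 and Emcn at 0, and epithelial markers to 0.363 and 0.501 with vehicle and to between 0.911 and 2.37 with TGF-β1, with Krt18 and Krt5 at 0. Their part in the results below was not tested. DMSO replicate 2 stood apart from the other libraries. Its deviations in log2 CPM had a Spearman correlation of -0.585 with gene length across genes, against values from -0.108 to 0.359 in the other 5 libraries.

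Per kilobase of exon, the ST2 gene Il1rl1 was by far the most abundant of the 10 transcripts in every group. It stood at 414 normalized CPM per kilobase in the vehicle libraries, where 1.77% of the 9518 genes tested were higher. Nfkbia followed at 71.0, then Nfkb2 at 48.1, Rela at 33.7, Il1r1 at 17.0, Nfkb1 at 12.1, Il1rap at 10.1, Il33 at 7.51 and Tnfaip3 at 0.873 normalized CPM per kilobase. Il1rn closed the order with 2 counts in 1 vehicle library and 0 in the other. No neighbours in this vehicle order overlapped between their libraries. The order depends on the annotated exonic length by which counts were divided. Without that division, Nfkb1 (146 normalized CPM) and Il1rap (115) stood above Nfkbia (114) and Rela (91.6) with vehicle. With TGF-β1 and DMSO the first 4 genes kept their order, with Il1rl1 at 316 normalized CPM per kilobase. Il1r1, at 4.04, then fell below Nfkb1, at 7.80, and its libraries overlapped with those of Il1rap, at 3.26. Il33, at 0.443, was last and overlapped with Il1rn, at 0.627. With BI6727 the first 8 places were the same as with DMSO. There the libraries of Il1r1 and Il1rap overlapped, as did those of Il33 and Il1rn.

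**Figure D1:**
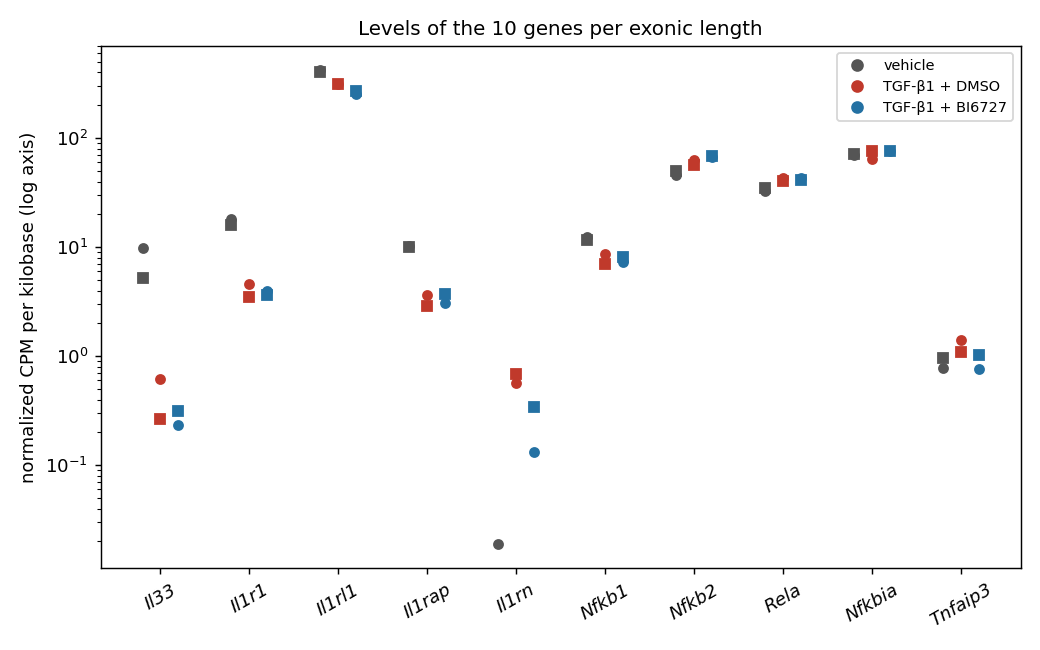
Normalized CPM per kilobase of exon (log axis) of the 10 genes, with circles for replicate 1 and squares for replicate 2 of each group. The vehicle library of Il1rn with 0 counts is not drawn. Il1rl1 lies above all other genes in every library, and Il33, Il1r1 and Il1rap lie lower in both TGF-β1 groups than with vehicle.

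The comparison of TGF-β1 and DMSO with vehicle asked how these genes differed with TGF-β1 and DMSO together. The cytokine Il33 and the receptor chains Il1r1 and Il1rap were lower with TGF-β1 and DMSO, and the antagonist Il1rn was higher. Il1rl1 and the NF-κB genes moved by less than 2-fold. A gene was called when edgeR gave it an adjusted p-value under 0.01 and its fold change passed 2. Of the 10 genes, 7 passed the filter on low counts (at least 10 CPM in more than 3 libraries), and 2 of these were called, both lower, where 5.1% of all 9518 genes tested were called and 2.53% were called lower. Il33, Il1rn and Tnfaip3 did not pass, and were tested among the 17936 genes with at least 10 counts in total, of which 5.02% were called. In that fit 4 of the 10 genes were called, with Il33, Il1r1 and Il1rap among the 2.72% of genes called lower and Il1rn among the 2.3% called higher. A filter that asks for more than 3 libraries drops a gene that is high in the vehicle libraries alone, as Il33 was. Il1rn, with 2 counts over the vehicle libraries, reached 10 counts in total only through its TGF-β1 libraries. Its call only describes those counts. In the first fit, 6 of 7 genes had groups that did not overlap, against 62.9% of all genes tested.

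Il33 (chr19:29925114-29960718, + strand, mm10), a cytokine of the interleukin-1 family that is stored in the nucleus and released as an alarm signal, had 546 and 330 counts with vehicle, 37 and 16 with DMSO and 12 and 22 with BI6727. In normalized CPM these were 28.4 and 15.0 with vehicle, 1.79 and 0.770 with DMSO, and 0.668 and 0.911 with BI6727. Both vehicle libraries were far above all 4 libraries with TGF-β1, and the DMSO and BI6727 libraries overlapped. The vehicle libraries themselves differed widely, with a mean of 21.7 ± 9.43 normalized CPM (SD, n = 2). Il33 was 17.0-fold lower with DMSO than with vehicle, a log2 fold change of -4.06 (SE 0.41, edgeR adjusted p = 0.000143). With 1 library left out it ranged from -4.80, without DMSO replicate 1, to -3.55, without vehicle replicate 1, and it was called in each of these fits. In bulk RNA, fewer cells that express a gene and less RNA per cell cannot be told apart.

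Il1r1 (chr1:40225080-40317257, + strand), the signalling receptor of interleukin-1, had 114 and 101 normalized CPM with vehicle, 29.1 and 22.4 with DMSO and 25.3 and 23.3 with BI6727. Both vehicle libraries were more than 3-fold above every TGF-β1 library, and the DMSO range enclosed the BI6727 range. The means were 108 ± 9.10 with vehicle and 25.7 ± 4.72 with DMSO (SD, n = 2), and Il1r1 was 4.19-fold lower with DMSO. The log2 fold change was -2.07 (SE 0.15, edgeR adjusted p = 0.000201), and 1.1% of all genes tested had a larger change in either direction.

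Il1rap (chr16:26581704-26730117, + strand), the accessory chain shared by both receptors, had 115 and 115 normalized CPM with vehicle, 41.2 and 32.8 with DMSO and 34.7 and 41.9 with BI6727. The vehicle libraries were nearly equal and lay above all others, while the DMSO and BI6727 libraries overlapped. Il1rap was 3.11-fold lower with DMSO than with vehicle, a log2 fold change of -1.64 (SE 0.15, edgeR adjusted p = 0.000458). The call was lost without vehicle replicate 1 or vehicle replicate 2 (edgeR adjusted p = 0.0146 and 0.0124), with the log2 fold change still at -1.64 in both fits. Of its exonic bases, 4.86% overlap Gm20319, and the strand setting of the counting is not given in the sources used here, so reads there cannot be assigned with certainty.

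Il1rl1 (chr1:40429570-40465415, + strand), the receptor of interleukin-33, had 2927 and 2780 normalized CPM with vehicle, 2176 and 2173 with DMSO and 1737 and 1874 with BI6727. The groups stood in the order vehicle, DMSO, BI6727 without overlap. The DMSO libraries were 1.31-fold below vehicle, a log2 fold change of -0.39 (SE 0.12, edgeR adjusted p = 0.0596), so the gene was not called. Gene counts do not tell the membrane form of the receptor from its soluble form, which comes from the same gene. The ratio of Il1rl1 to Il1r1 per kilobase was 23.6 and 25.3 with vehicle, 69.1 and 89.6 with DMSO and 63.5 and 74.3 with BI6727. The ratio of Il1rl1 to Il1rap per kilobase was 41.8 and 39.8 with vehicle, 87.0 and 109 with DMSO and 82.6 and 73.7 with BI6727. Both ratios were higher in every TGF-β1 library than in either vehicle library.

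Il1rn (chr2:24336853-24351494, + strand), which encodes the antagonist that occupies Il1r1 without signalling, had 2 and 0 counts with vehicle, 65 and 79 with DMSO and 13 and 46 with BI6727. It was close to absent with vehicle and present at a low level in all 4 TGF-β1 libraries, at 3.14 and 3.80 normalized CPM with DMSO and 0.723 and 1.90 with BI6727. The pooled counts of 144 against 2 gave a ratio of 71.6 per library size, with an exact 95% interval from 19.5 to 597 that covers counting error only. Il1rn was called (edgeR adjusted p = 0.000886), but not without vehicle replicate 1 (0.0133) or vehicle replicate 2 (0.0219). The secreted and intracellular forms of the antagonist were counted together.

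**Figure D2:**
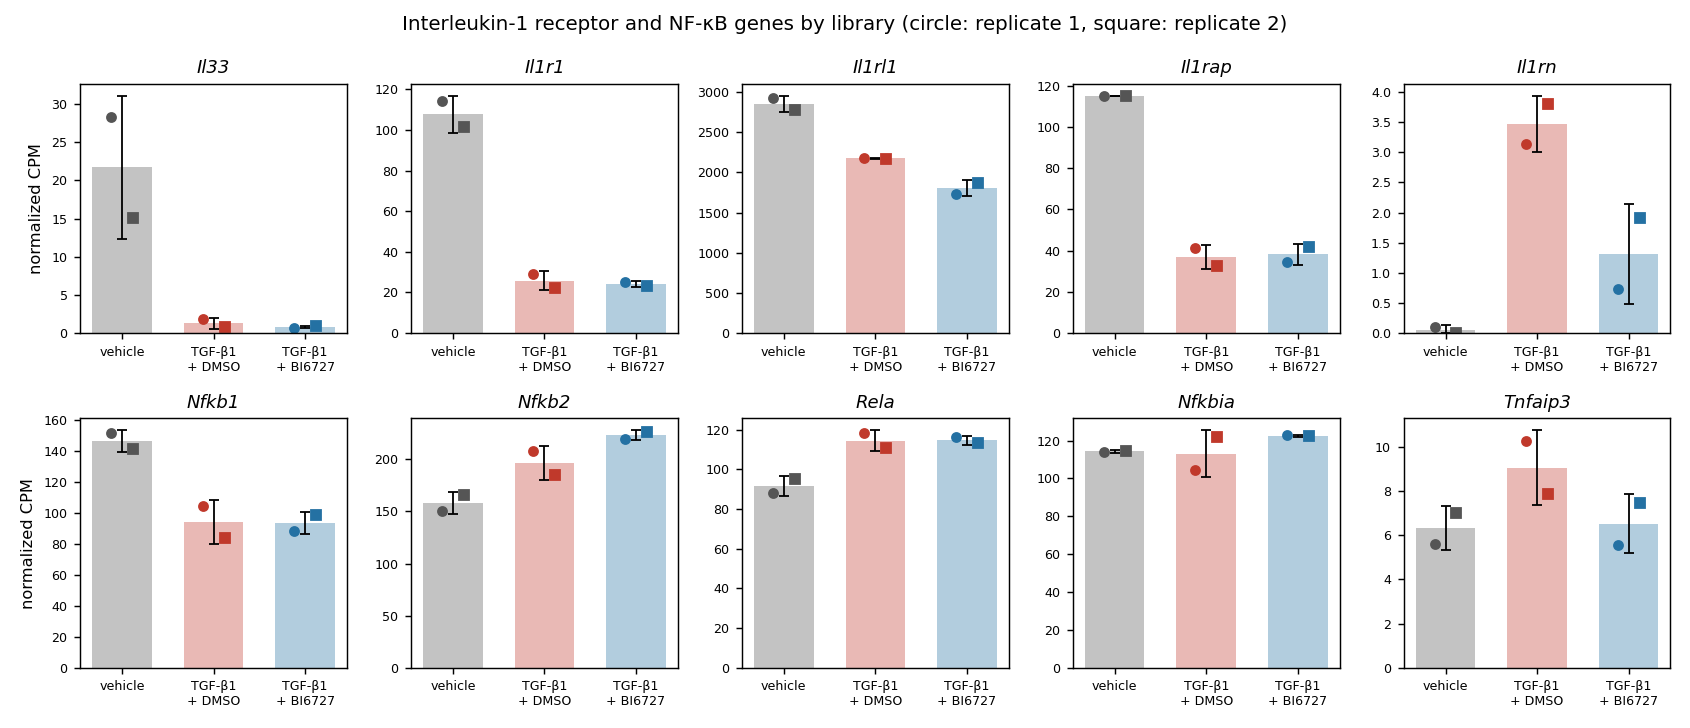
Normalized CPM of the 10 genes by group, with bars for the mean of 2 libraries, error bars for the SD, circles for replicate 1 and squares for replicate 2. Il33, Il1r1 and Il1rap are lower in all 4 TGF-β1 libraries than in both vehicle libraries, Il1rn is near 0 with vehicle, and Nfkbia stays between 104 and 123 in all 6 libraries.

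The NF-κB subunits differed from vehicle by less than Il1r1 and Il1rap did and in different directions, and none was called. Nfkb1 (chr3:135584655-135691547, - strand), which encodes the p105 precursor of the p50 subunit, had 151 and 141 normalized CPM with vehicle, 104 and 83.9 with DMSO and 88.1 and 98.5 with BI6727. All 4 TGF-β1 libraries were below both vehicle libraries, and the log2 fold change with DMSO was -0.63 (SE 0.13, edgeR adjusted p = 0.0130). Offsets for the length trend of each library gave -0.42 (edgeR adjusted p = 0.00693). Nfkb2 (chr19:46304737-46312090, + strand), which encodes the p100 precursor of the p52 subunit used by the noncanonical arm, had 151 and 166 normalized CPM with vehicle, 208 and 185 with DMSO and 220 and 226 with BI6727. Its 3 groups did not overlap, and the log2 fold change with DMSO was 0.31 (SE 0.10, edgeR adjusted p = 0.0666). Of the 50-base windows in Nfkb2 transcripts, 14.9% also occur in transcripts of other genes, so part of its count is uncertain. Rela (chr19:5637483-5648130, + strand), which encodes the p65 subunit, had 88.1 and 95.1 normalized CPM with vehicle, 118 and 111 with DMSO and 116 and 113 with BI6727. All 4 TGF-β1 libraries were above both vehicle libraries, and the log2 fold change with DMSO was 0.32 (SE 0.09, edgeR adjusted p = 0.0486). Per kilobase, the ratio of Nfkb2 to Nfkb1 was 3.66 and 4.31 with vehicle and between 7.31 and 9.15 in the 4 TGF-β1 libraries. The ratio of Rela to Nfkb1 was 2.59 and 2.99 with vehicle and between 5.03 and 5.87 with TGF-β1.

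The inhibitors Nfkbia and Tnfaip3, both NF-κB target genes, were not called in either direction. Nfkbia (chr12:55489410-55492647, - strand), which encodes the IκBα protein that holds NF-κB in the cytoplasm, had 114 and 115 normalized CPM with vehicle, 104 and 122 with DMSO and 123 and 122 with BI6727. The DMSO libraries lay on either side of the vehicle libraries. Its log2 fold change with DMSO was -0.016 with a 95% interval from -0.26 to 0.23 (edgeR adjusted p = 0.922), and 96.7% of all genes tested had a larger change. Tnfaip3 (chr10:19000910-19015657, - strand), which encodes the ubiquitin-editing protein A20, had 5.61 and 7.01 normalized CPM with vehicle, 10.2 and 7.85 with DMSO and 5.56 and 7.45 with BI6727. The DMSO libraries were the highest, and the vehicle and BI6727 libraries overlapped. The log2 fold change with DMSO was 0.53 (SE 0.24, edgeR adjusted p = 0.164), and without DMSO replicate 1 it was 0.31.

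The windows of 250 bases before the annotated starts were searched for motifs bound by NF-κB and AP-1, because the genes include NF-κB subunits and their targets. RefSeq promoters on GRCm38.p6, the assembly that mm10 names, were found for 9 of the 10 genes, Nfkb1 being the exception, with 17 windows in all. The κB consensus, a motif of 10 bases searched by its standard degenerate form on both strands, was found in windows of Il1r1, Nfkb2, Nfkbia and Tnfaip3. It was present in 6 of the 17 windows, against 7.25% of the 32851 promoter windows of all genes. It was not found in the windows of the other 5 genes, which include Il33, Il1rap and Il1rn. The AP-1 motif TGANTCA, which does not overlap the κB matches here, was found in windows of Il1rn, Nfkb2 and Tnfaip3. It was present in 3 of the 17 windows, against 6.75% of all windows. Genes differ in their number of windows, and Nfkb2 held a κB match in each of its 3 windows. Windows of 1 gene can also share bases, as some of Il1rn and of Nfkb2 did. The share of all genes with a match was not computed. A match is only a description of the letters. These windows are shown, 5′ to 3′ on the gene's strand, for a receptor that fell, the antagonist that rose, and a subunit and an inhibitor that were not called. Capitals mark the κB matches in Il1r1 (chr1:40266336-40266585, + strand, before its second annotated start), Nfkb2 (chr19:46304487-46304736, + strand) and Nfkbia (chr12:55492648-55492897, - strand), and the AP-1 match in Il1rn (chr2:24336610-24336859, + strand).
Il1r1: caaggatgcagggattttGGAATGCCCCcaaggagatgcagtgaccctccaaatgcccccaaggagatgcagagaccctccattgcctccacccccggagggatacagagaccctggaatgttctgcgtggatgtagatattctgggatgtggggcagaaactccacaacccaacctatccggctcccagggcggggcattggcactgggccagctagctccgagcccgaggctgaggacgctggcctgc
Il1rn: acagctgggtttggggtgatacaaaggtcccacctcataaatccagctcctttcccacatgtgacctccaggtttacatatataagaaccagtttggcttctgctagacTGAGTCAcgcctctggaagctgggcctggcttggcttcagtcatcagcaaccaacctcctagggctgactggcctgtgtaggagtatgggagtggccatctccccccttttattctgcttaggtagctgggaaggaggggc
Nfkb2: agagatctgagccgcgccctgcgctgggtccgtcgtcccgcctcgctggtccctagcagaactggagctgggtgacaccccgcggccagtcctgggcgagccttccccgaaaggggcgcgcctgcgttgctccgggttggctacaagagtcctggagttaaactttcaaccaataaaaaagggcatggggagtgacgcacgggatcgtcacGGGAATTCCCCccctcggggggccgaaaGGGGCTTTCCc
Nfkbia: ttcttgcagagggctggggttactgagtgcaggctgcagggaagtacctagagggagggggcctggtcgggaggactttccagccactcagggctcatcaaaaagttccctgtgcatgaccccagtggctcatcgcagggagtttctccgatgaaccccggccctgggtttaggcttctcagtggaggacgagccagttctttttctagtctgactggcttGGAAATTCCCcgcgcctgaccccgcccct
The κB match of Nfkbia lay from position -29 to -20 relative to the start, and that of Il1r1 from -232 to -223. Nfkb2 held 3 matches in its first window, of which a pair on opposite strands overlapped between -39 and -29. The AP-1 match of Il1rn lay from -141 to -135. Genes with a κB match in a window thus included 1 gene that was called lower, Il1r1, and 3 that were not called. Of the 5 genes without a κB match, Il33 and Il1rap were called lower and Il1rn higher, while Il1rl1 and Rela were not called.

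The comparison of BI6727 with DMSO, both with TGF-β1, asked whether the levels differed with the PLK1 inhibitor. None of the 7 genes past the filter was called, and 0% of all 9518 genes tested were called by edgeR, where the smallest adjusted p-value was 0.0565. DESeq2 called 11 genes, none of them among the 10. At an unadjusted p below 0.05, 6.68% of all genes tested and 0 of the 7 genes were counted. The lower levels of Il33, Il1r1 and Il1rap with TGF-β1 were thus present with and without BI6727. Of the 7 genes, 3 had groups that did not overlap (Il1rl1, Nfkb2 and Nfkbia), against 34.1% of all genes tested.

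The log2 difference between BI6727 and DMSO was -0.09 for Il1r1, with a 95% interval from -0.45 to 0.27, and 0.05 for Il1rap, from -0.30 to 0.40. It was -0.012 for Nfkb1, from -0.31 to 0.29, and 0.0040 for Rela, from -0.22 to 0.23. These intervals were narrow enough to leave out a 2-fold difference in either direction, but a miss of the threshold does not show that the groups were alike. For Il33 the difference was -0.66, with an interval from -1.85 to 0.52 that includes a 2-fold fall. The sign of all 5 differences turned when some single library was left out. Without DMSO replicate 1 those of Il33 and Il1r1 became 0.070 and 0.11.

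The BI6727 libraries of Il1rl1 lay under its DMSO libraries, by 1.21-fold between the means, with a log2 difference of -0.27 and a 95% interval from -0.56 to 0.02 (edgeR adjusted p = 0.745). Nfkb2 was 0.18 higher on the log2 scale (interval from -0.06 to 0.42, edgeR adjusted p = 0.765) and Nfkbia 0.12 higher (interval from -0.13 to 0.36, edgeR adjusted p = 0.854). Il1rn had 1.31 ± 0.835 normalized CPM with BI6727 and 3.47 ± 0.470 with DMSO (SD, n = 2), a log2 difference of -1.36 (SE 0.49, edgeR adjusted p = 0.719). Both BI6727 libraries were below both DMSO libraries, but they differed from each other, and the difference was -0.86 without BI6727 replicate 1 and -2.25 without BI6727 replicate 2. The BI6727 libraries of Tnfaip3 also lay under its DMSO libraries, with a log2 difference of -0.46 (SE 0.23, edgeR adjusted p = 0.768). None of these differences passed the threshold.

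**Figure D3:**
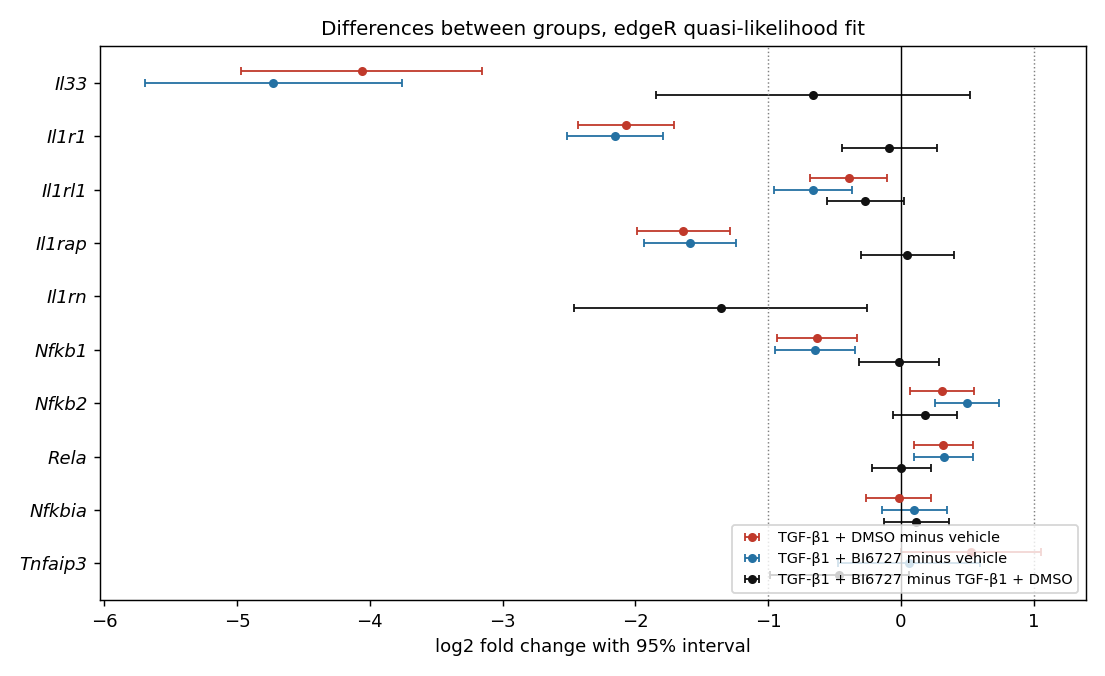
Fitted log2 fold changes of the 10 genes (points) with 95% intervals (bars) in the 3 comparisons, with dotted lines at a 2-fold change. The differences of Il1rn from vehicle are not drawn because its vehicle libraries held 2 counts in all. Il33, Il1r1 and Il1rap lie beyond a 2-fold fall against vehicle in both TGF-β1 groups, and the intervals between BI6727 and DMSO include 0 for all genes except Il1rn, whose adjusted p was 0.719.

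The comparison of BI6727 with vehicle shares the vehicle libraries with the comparison of DMSO with vehicle, so that likeness between them is no independent support. Again Il1r1 and Il1rap were called lower, 2 of 7 genes against 5.31% of all genes tested called and 2.96% called lower. With the filter of 10 counts in total 4 of the 10 genes were called, against 5.18% of all genes, 3.13% lower and 2.05% higher, with Il1rn again the gene called higher. All 7 genes had groups that did not overlap, against 76.8% of all genes tested. Il33 was 27.5-fold lower than with vehicle, a log2 fold change of -4.73 (SE 0.43, edgeR adjusted p = 7.44e-05), although its call was lost without BI6727 replicate 1 (0.0123) or BI6727 replicate 2 (0.0109). Il1r1 was 4.45-fold lower, at -2.15 on the log2 scale (SE 0.15, edgeR adjusted p = 0.000161). Il1rap was 3.01-fold lower, at -1.59 (SE 0.15, edgeR adjusted p = 0.000471), and was not called without vehicle replicate 1 (0.0136) or vehicle replicate 2 (0.0121). These 3 genes were below both vehicle libraries in 2 of 2 BI6727 libraries.

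Il1rn had 59 counts in the BI6727 libraries against 2 with vehicle, a ratio of 28.9 per library size with an exact 95% interval from 7.65 to 244 (edgeR adjusted p = 0.00590). Its call was lost without any 1 of these 4 libraries, with edgeR adjusted p-values of 0.0362 and 0.0765 without vehicle replicates 1 and 2, and of 0.0171 and 0.0845 without BI6727 replicates 1 and 2. Il1rl1 was 1.58-fold lower than with vehicle (log2 fold change -0.66, SE 0.12, edgeR adjusted p = 0.00919), which passed the p-value threshold, as 10.9% of all genes tested did, but not the 2-fold threshold. The NF-κB genes were not called, with log2 fold changes of -0.65 for Nfkb1, 0.50 for Nfkb2, 0.32 for Rela, 0.10 for Nfkbia and 0.06 for Tnfaip3. Their edgeR adjusted p-values were 0.0114, 0.0132, 0.0447, 0.512 and 0.893 in that order.

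The rest of the pathway was described with 7 lists of 91 genes, of which 90 were in the table and 52 passed the filter. With TGF-β1 and DMSO against vehicle, 3 of the 52 were called higher and 9 lower, against 2.56% and 2.53% of all genes tested. Their median log2 fold change was -0.13, and that of all genes tested was -0.0045. The calls lay mostly among the NF-κB target genes, with 8 called lower and 2 higher of 14 tested. The lists of the machinery between receptor and target had 13, 9, 5 and 11 genes tested and held 2 calls. That is near the share of all genes tested that were called, 5.1%. Bcl3, of the IκB list, missed this filter and was called lower with the filter of 10 counts in total. These counts describe the lists and carry no test of a list. The lists were also chosen with earlier results of these data known. Their called shares, here and below, are therefore no independent evidence about them.

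Among the receptor adaptors and kinases, 13 of 14 genes were tested, 1 was called higher, 1 was called lower and 11 were not called, with a median log2 fold change of -0.09. Irak2, a kinase-like adaptor of the interleukin-1 receptor complex, had 15.3 and 17.5 normalized CPM with vehicle, 90.6 and 97.2 with DMSO and 79.2 and 72.0 with BI6727. All 4 TGF-β1 libraries were above both vehicle libraries, and Irak2 was 5.73-fold higher with DMSO (log2 fold change 2.52, SE 0.13, edgeR adjusted p = 4.14e-05). Peli2, a ubiquitin ligase that acts on Irak proteins, had 78.6 and 71.3 normalized CPM with vehicle, 17.9 and 15.6 with DMSO and 17.1 and 18.01 with BI6727. It was 4.48-fold lower with DMSO (log2 fold change -2.16, SE 0.13, edgeR adjusted p = 9.58e-05), although 9.56% of its exonic bases overlap Gm6498. Neither differed past the threshold between BI6727 and DMSO.

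In the IKK complex and noncanonical arm, 9 of 10 genes were tested and none was called (median log2 fold change -0.041). The largest differences there were -0.58 for Ikbke and -0.58 for Map3k14, kinases upstream of NF-κB. Of the other NF-κB subunits and IκB proteins, 5 of 9 were tested and none was called (median 0.40). Nfkbib, which encodes IκBβ, had a log2 fold change of 0.72 (edgeR adjusted p = 0.00766, fold under 2) and Nfkbil1 one of 0.45 (edgeR adjusted p = 0.143). Nfkbil1 had 23.8 and 35.6 normalized CPM in DMSO replicates 1 and 2, against 20.9 and 22.7 with vehicle. With 1 library left out, its log2 fold change was as low as 0.14. For both genes, 16.4% of the exonic bases overlap other genes. Of the deubiquitinases and other inhibitors, 11 of 12 were tested and none was called (median -0.0075). The largest differences there were 0.81 for Rnf11, a ring-finger partner of A20, and 0.52 for Zc3h12a, which encodes an RNase that degrades cytokine transcripts. Rnf11 was called in BI6727 against vehicle, at 1.03, a call lost without any 1 of those 4 libraries (edgeR adjusted p from 0.0119 to 0.0237).

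Of 30 NF-κB target genes, 14 were tested with TGF-β1 and DMSO against vehicle, 8 were called lower, 2 were called higher and 4 were not called. Their median log2 fold change was -1.15. Cxcl5, a neutrophil chemokine, had 518 and 362 normalized CPM with vehicle, 29.8 and 30.5 with DMSO and 12.1 and 11.8 with BI6727. It was 14.6-fold lower with DMSO (log2 fold change -3.87, SE 0.18, edgeR adjusted p = 3.77e-05). The complement gene C3 was 9.02-fold lower (-3.17 on the log2 scale), the adhesion molecule gene Vcam1 4.83-fold lower (-2.27) and the chemokine gene Cxcl1 4.23-fold lower (-2.08, a call lost without vehicle replicate 1, edgeR adjusted p = 0.0199). The other called genes were Ccl7, Ptges, Ccl2 and Sod2, with log2 fold changes of -1.95, -1.28, -1.19 and -1.11. In contrast, Ptgs2, which encodes the inducible cyclooxygenase COX-2, rose from 125 and 126 normalized CPM with vehicle to 426 and 432 with DMSO, at a log2 fold change of 1.77 (SE 0.09, edgeR adjusted p = 4.55e-05). Gadd45b, a stress-response gene, was called higher at 1.21 (edgeR adjusted p = 0.00326). Ptgs2 and Gadd45b are named because they were the only target genes past the filter that were called higher. The calls of Ccl2, Sod2 and Gadd45b were lost without either vehicle library, that of Gadd45b also without either BI6727 library or in a fit of the 2 groups alone, that of Sod2 also with length offsets (-0.91) and that of Ptges without vehicle replicate 2.

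**Figure D4:**
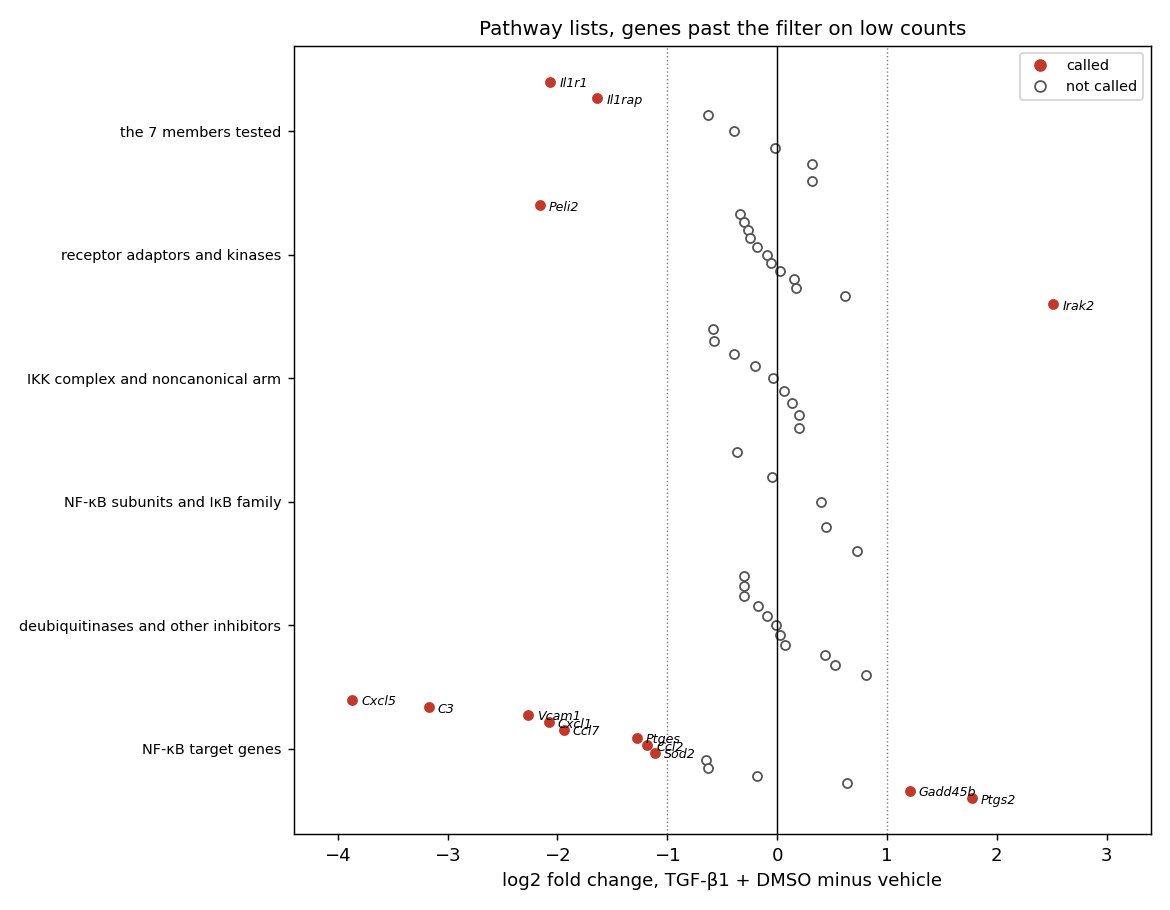
Log2 fold change between TGF-β1 with DMSO and vehicle of the genes past the filter on low counts (points), by list, with filled points for called genes and dotted lines at a 2-fold change. The target genes hold 8 genes called lower and 2 called higher, and no gene of the IKK, IκB or deubiquitinase lists is called.

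Between BI6727 and DMSO none of the 52 pathway genes was called by edgeR (median log2 fold change 0.024, against -0.0028 for all genes tested). The 5 largest differences were all in chemokine or adhesion genes and all lower with BI6727. They were -1.34 for Cxcl5 (SE 0.18, edgeR adjusted p = 0.194), -0.77 for Ccl7 (edgeR adjusted p = 0.468) and -0.76 for Ccl2 (edgeR adjusted p = 0.388). For Cxcl1 the difference was -0.70 (edgeR adjusted p = 0.722) and for Vcam1 -0.69 (edgeR adjusted p = 0.536). The BI6727 and DMSO libraries did not overlap for these 5 genes, which were picked for their size, against 34.1% of all genes tested. Ccl2, a monocyte chemokine, had 319 and 399 normalized CPM with DMSO and 219 and 204 with BI6727, against 841 and 791 with vehicle. Cxcl5, 2.52-fold lower between the group means, was called by DESeq2 (adjusted p = 2.35e-08) and by edgeR without DMSO replicate 1 or DMSO replicate 2. It was not called in the other 11 of 14 alternative fits. Its log2 difference ranged from -1.35 to -1.29 over all of them. BI6727 against vehicle gave 4 pathway genes called higher and 7 lower of 52, where 2.34% of all genes tested were called higher and 2.96% lower.

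**Figure D5:**
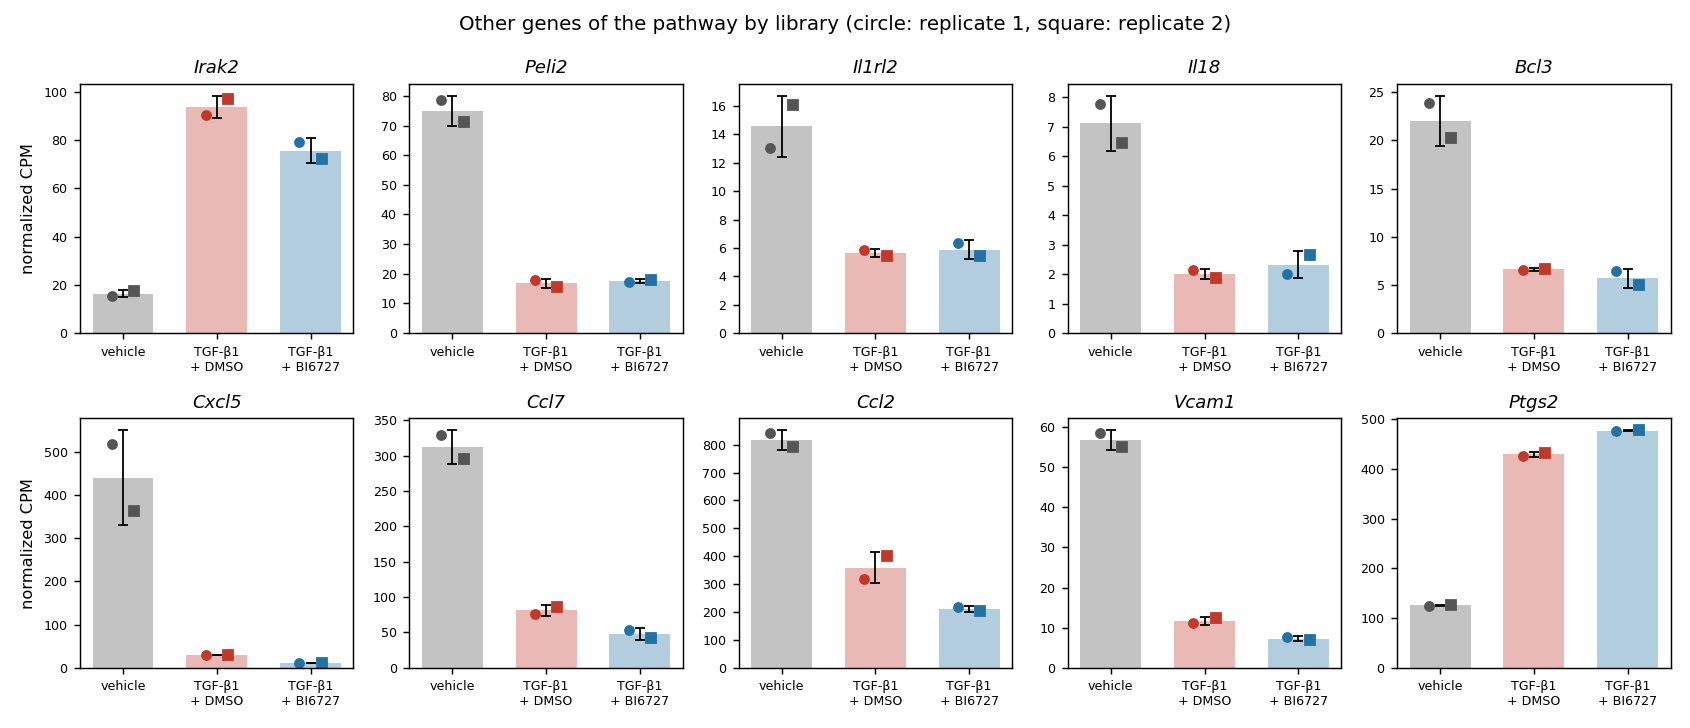
Normalized CPM of 10 other genes of the pathway by group, with bars for the mean of 2 libraries, error bars for the SD, circles for replicate 1 and squares for replicate 2. Cxcl5, Ccl7, Ccl2 and Vcam1 are lowest with BI6727, Irak2 and Ptgs2 are higher in all 4 TGF-β1 libraries than with vehicle, and Peli2, Il1rl2, Il18 and Bcl3 are lower.

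No other ligand or receptor of the interleukin-1 family passed the filter. Il1a and Il1b had at most 4 and 2 counts in a library and the decoy receptor Il1r2 at most 2. With the filter of 10 counts in total, further pathway genes were called, and the following are named after their values were seen. The ligand gene Il18 was lower with DMSO than with vehicle (log2 fold change -1.82, edgeR adjusted p = 0.00136), as was Il1rl2, the interleukin-36 receptor (-1.36, edgeR adjusted p = 0.00144), and Bcl3, a nuclear partner of p50 and p52 (-1.73, edgeR adjusted p = 0.000232). Each was below both vehicle libraries in all 4 TGF-β1 libraries, but the calls of Il18 and Il1rl2 were lost without either vehicle library (edgeR adjusted p up to 0.0314), that of Il1rl2 also without either BI6727 library, and that of Bcl3 without vehicle replicate 1 (0.0108). Of the NF-κB target genes, 18 of 28 tested with this filter were called with DMSO against vehicle, where 5.02% of all genes tested were. Among target genes that missed the filter on low counts, Saa3, Ptx3 and Lcn2 were lower with DMSO (-6.91, -4.10 and -4.81). Saa3 and Ptx3 were not low with vehicle. Saa3 had 206 and 99.8 normalized CPM with vehicle, which differed widely, and 1.4 and 1.1 with DMSO. Ptx3 had 191 and 136 with vehicle and 9.9 and 9.0 with DMSO. Steap4 was also called lower, with 0 counts in each DMSO library. Mmp13, Ccl5, Traf1 and Il6 were higher (4.18, 1.83, 4.325 and 1.498). The calls of Il6, Lcn2, Traf1 and Steap4 were lost in 5, 4, 4 and 1 of 13 alternative fits. Saa3 was at -6.31 without vehicle replicate 1. Mmp13, with 2 and 8 counts with vehicle, was at 3.58 without vehicle replicate 1 and at 5.35 without vehicle replicate 2, and the call of Ccl5 was lost without vehicle replicate 1 (edgeR adjusted p = 0.0356) or vehicle replicate 2 (0.0142). Ccl5, a T cell chemokine, had 12.4 and 12.8 normalized CPM with DMSO and 1.78 and 1.08 with BI6727, a log2 difference of -3.16 (edgeR adjusted p = 0.00888), 1 of 2 genes called in that fit, or 0.0112% of the genes tested. This call was lost without either vehicle library (edgeR adjusted p = 0.101 and 0.0933) or either BI6727 library (0.554 and 1), under the replicate block (0.0139), in the fit of the 2 groups alone (0.101) and with edgeR's own filter (0.0227).

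The genes whose log2 CPM followed most closely that of the 2 receptor genes with the widest range are given as a description. For Il1r1 they were Nr2f1, Lpar1 and En1 (Pearson r of 0.999 for each over the 6 libraries), and for Il1rap they were Fam131b, Acsl1 and Ttyh2 (0.998, 0.998 and 0.997). All 6 were lower with DMSO than with vehicle, by log2 fold changes between -2.71 and -1.12, and the points share the same libraries and depth.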

How the data were processed

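RNA-seq counts per gene were used from 6 libraries of NIH/3T3 cells. The authors mapped the reads to mm10 with Subjunc of Subread 1.6.4, counted them with featureCounts on Gencode M20 genes, and deposited the counts without normalization. Groups and replicates came from the sample labels. The groups were compared in R 4.3.3 by the quasi-likelihood test of edgeR 4.0.16 with TMM factors. A single model held the 6 libraries and left 3 residual degrees of freedom. It covered the 9518 genes that reached 10 CPM in more than 3 libraries, and p-values were adjusted over all of these by Benjamini-Hochberg. Calls needed an adjusted p-value under 0.01 and a fold change over 2. Genes under the filter were tested among the 17936 genes with at least 10 counts in total. For normalized CPM, each count was divided by its library's total over the genes past the first filter, scaled by TMM, and lengths are exonic bases. Library totals were 18362378 to 24452153 counts, and intervals on counts cover counting error only. Alternatives were DESeq2 1.42.0, its size factors, other filters and thresholds, the 2 groups alone, the replicate number as a block, offsets for the trend on gene length, and each library left out.

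The 10 genes and the lists were chosen with earlier results of these data known. From the lists, the text names up to 4 called genes of each with the largest change with DMSO, or the 2 with the largest change where fewer than 2 were called, and the 5 with the largest change with BI6727. Other genes are named as called or as chosen after their values were seen. Symbols came from a reference table of Ensembl gene IDs for 54723 of 54752 genes. The other experiments of the study were not analysed here.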

Additional observations from a re-analysis of the deposited data

How the results depend on the processing

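Of 411 alternative values for the log2 fold changes of the 10 genes, 385 kept their direction and their side of the threshold, 12 lost a call and 14 changed sign, all of the last among differences that were not called. Genes called with DMSO against vehicle numbered 485, 127 to 792 with 1 library left out (127 and 161 without vehicle replicates 1 and 2, 792 without DMSO replicate 1), 874 with edgeR's own filter, 901 with the filter of 10 counts in total, and 2186 when only an adjusted p under 0.05 was asked for. Among the 10 genes these counts were 2, 1 to 2, 4, 4 and 4, and among the pathway genes 12, 8 to 12, 23, 23 and 22. With BI6727 against vehicle, 505 genes were called, and 163 to 537, 908, 929 and 2333 under the same settings (163 and 209 without vehicle replicates 1 and 2, 223 and 224 without BI6727 replicates 1 and 2). There the 10 genes gave 2, 1 to 2, 4, 4 and 6, and the pathway genes 11, 8 to 11, 21, 21 and 21. Between BI6727 and DMSO 0 genes were called, and 0 to 61 with 1 library left out (61 without DMSO replicate 1, 18 without DMSO replicate 2), 11 with DESeq2, 6 with length offsets and 2 with the filter of 10 counts in total. Of these, 0 to 1, 1, 0 and 1 were pathway genes. The wider filters test more genes, and the cause of the other shifts was not tested. A group reduced to 1 library was assumed to vary like the others.

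Same-numbered libraries did not deviate together (correlations of -0.11, -0.258 and 0.0466), so the numbers were not taken as pairs. With the replicate block, edgeR called 453, 0 and 478 genes (DMSO against vehicle, BI6727 against DMSO, BI6727 against vehicle) and 2, 0 and 2 of the 10 genes. With the DMSO numbers crossed, added after the data were seen like the settings run on the pathway genes, it called 491, 0 and 523 genes. With 1 library left out, the log2 difference ranged from -0.12 to 0.086 for Nfkbia with DMSO against vehicle, and from -0.17 to 0.25 for Tnfaip3 with BI6727 against vehicle. Between BI6727 and DMSO it ranged from -1.17 to 0.070 for Il33, -0.28 to 0.11 for Il1r1, -0.11 to 0.23 for Il1rap, -0.17 to 0.16 for Nfkb1 and -0.056 to 0.054 for Rela. Il1rap was at -0.060 with length offsets, and Rela at -0.0073 with DESeq2 and -0.0073 with its size factors. Genes with few counts, such as Il1rn with vehicle, are limited by depth, and 2 libraries a group limit every comparison.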
